A study of Homo sapiens with 6 samples.

Results

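The Integrator subunits INTS1 to INTS10 were examined in total RNA-seq of HEK293 cells, a human embryonic kidney line. The members were all transcripts listed under the gene identifiers of these 10 subunits, without selection by any measured value, and made up 10 of 63190 genes and 127 of 207167 transcripts in the table. The labels name 3 libraries in which the DIS3L2 D391N mutant was overexpressed and 3 control libraries. DIS3L2 is an exoribonuclease that degrades uridylated RNAs, and D391N lacks catalytic activity. According to the methods of the study, the construct was stably integrated in HEK293T-Rex cells, a derivative in which doxycycline switches the integrated gene on, and the controls were HEK293T-Rex FlipIn cells. The text does not say whether the controls received doxycycline. Each condition was a line of its own, so that the mutant and the line cannot be told apart, and it is not stated whether the 3 libraries of a condition were separate cultures, so that the p-values measure only the spread between these libraries. The comparison asks whether RNA levels change when the inactive enzyme is made.

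Integrator binds RNA polymerase II near the start of genes and cuts the nascent RNA there. It was found as the complex that makes the 3′ ends of the spliceosomal snRNAs transcribed by polymerase II, such as U1, U2, U4 and U5. U6, which polymerase III transcribes, does not need it. Its subunits form modules: a backbone with INTS1, INTS2 and INTS7, a cleavage module of INTS4, INTS9 and the endonuclease INTS11, a phosphatase module in which INTS5, INTS6 and INTS8 hold protein phosphatase 2A (PP2A), an arm of INTS10, INTS13, INTS14 and INTS15, and INTS3, which is also part of the SOSS complex of DNA repair.

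Levels are RPKM, reads scaled to transcript length and library size, taken from the natural log values that the authors estimated for each transcript. The level of a gene is the sum over its transcripts. A depth estimated from the posterior variance of genes with a single transcript was 19800000 to 26300000 reads in the D391N libraries and 22000000 to 33100000 in the controls. D391N replicate 2 had the lowest estimated depth and the smallest share of reads on transcripts under 200 nt, 0.342% against 1.52% to 3.18% in the other 5 libraries. DIS3L2 itself, construct reads included, summed to 369, 467 and 512 RPKM in the D391N libraries and 11.8, 12.9 and 14.6 RPKM in the controls. Of the HEK293 markers, LIN28B lay between 28.1 and 31.9 RPKM in D391N and between 15.8 and 25.3 RPKM in the controls, VIM was lower in every D391N library, at 110 to 143 RPKM against 151 to 177 RPKM, and NEFM was at most 0.638 RPKM. Of the 12 markers of blood, liver, connective tissue, vessel and epithelium, 1 had no match, and the summed level of the others was 12.8 to 16.7 RPKM in D391N and 12 to 16.3 RPKM in the controls. The T cell marker CD3E was at most 0.137 RPKM and the keratinocyte marker KRT14 at most 0.0875 RPKM. Other markers were higher: HBB lay between 2.14 and 7.12 RPKM, COL1A1 between 2.03 and 4.05 RPKM and PTPRC between 1.34 and 1.77 RPKM. DCN was higher in every D391N library, at 3.04 to 6.23 RPKM against 2.01 to 2.50 RPKM, and its part in any result was not tested.

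Short stretches of 3 members are shown because the results below turn on the transcripts they tell apart. All are coding or intronic sequence on the minus strand of GRCh37, read from the genome 5′ to 3′, and coordinates are GRCh37 although the authors aligned to GRCh38. In INTS6 the full-length transcript ENST00000398119 joins an upstream coding exon (chr13:51961522-51961536) to an exon (chr13:51957863-51957877, in capitals) that it shares with the shorter ENST00000490542, and 4 annotated INTS6 transcripts hold this junction.
INTS6 full-length junction: aattcgccaacactaCCACCTCGTACATCT
ENST00000490542 starts at an exon of its own, which lies in the intron that this junction removes, and its coding sequence begins inside the shared exon (chr13:51957794-51957823, start codon in capitals). It is annotated with 571 codons against 874 for ENST00000398119. The stretch is found in 9 annotated INTS6 transcripts and in the pseudogene INTS6P1, so it does not mark the short transcript by itself.
INTS6 short transcript, coding start: ATGgttattgataaacttccttttgacaaa
In INTS4 the transcript ENST00000533180 reads 64 bases past an exon end that the full-length transcript splices. The first line shows that exon end with the donor dinucleotide in capitals (chr11:77612452-77612481), the second the same exon end joined to the next exon, in capitals (chr11:77612467-77612481 and chr11:77605381-77605395).
INTS4 read-through: acgaactacacgaggGTaagatgtggggtt
INTS4 spliced junction: acgaactacacgaggACTTGACCCCTTATT
INTS5 has a single listed transcript with 2 exons, and the junction of its only intron (chr11:62420642-62420656 and chr11:62417457-62417471, second exon in capitals) is in no other annotated transcript.
INTS5 junction: tcccgcgcctctcagTGCTCAGGAGCTGTC

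All 10 subunits were expressed, but at unequal levels. In the controls the order of the summed RPKM was INTS10 (187), INTS8 (48.7), INTS6 (26.6), INTS7 (23.8), INTS9 (18.6), INTS2 (14.1), INTS4 (12.2), INTS1 (11.7), INTS3 (8.59) and INTS5 (2.38). The control libraries of INTS6 and INTS7, of INTS7 and INTS9, and of INTS4 and INTS1 overlapped, and the other neighbours in this order did not. The D391N libraries gave the same order of means.

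**Figure D1:**
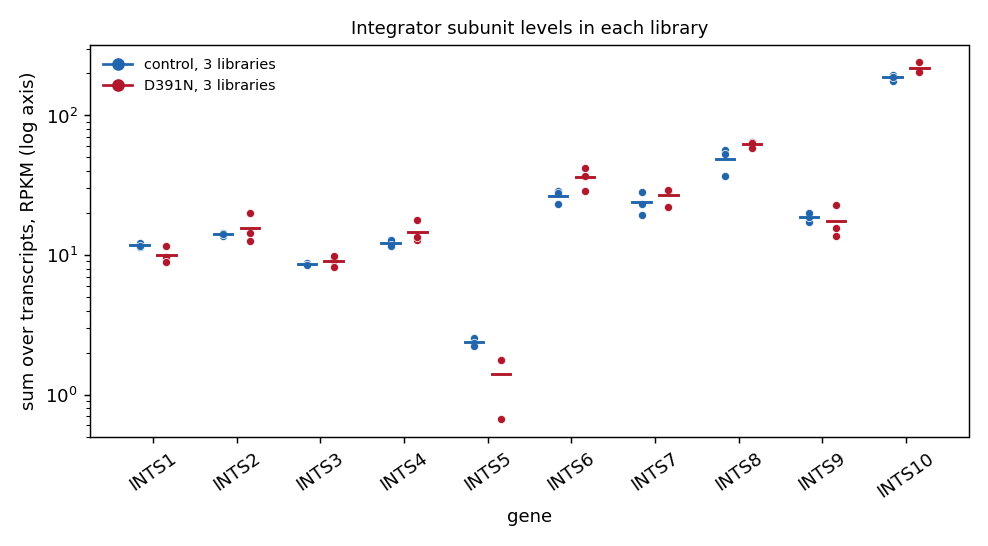
Summed RPKM of the 10 subunits on a log axis, with 3 control libraries (blue) and 3 D391N libraries (red) for each gene and bars at the means. INTS10 lies highest in every library and INTS5 lowest, where D391N replicates 1 and 3 (1.77 and 1.76 RPKM) fall on the same point.

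This order depended on what was summed. INTS10 owed its rank to short transcripts: ENST00000522806, a 213-nt transcript of 2 exons without a defined coding sequence, was at 79.9, 90.8 and 95.7 RPKM in the controls and made up 47.4% ± 2.79 (SD, n = 3) of the gene's sum. The full-length coding transcript ENST00000397977 (710 codons) was at 9.54, 6.80 and 5.03 RPKM in the same libraries. When only protein-coding transcripts of at least 2000 nt were summed, a measure chosen after seeing the data, INTS6 (13.4 RPKM), INTS8 (13.2 RPKM) and INTS7 (13.0 RPKM) were highest in the controls with overlapping neighbours, and INTS10 followed at 7.13 RPKM. The measure is not limited to full-length transcripts. For INTS6 it includes the 2307-nt ENST00000490542, at a control mean of 5.96 RPKM, and ENST00000442263, annotated with only 115 codons. INTS9, which pairs with INTS11 in the endonuclease, was lowest on this measure at 1.08 RPKM ± 0.0949 (SD, n = 3), which is 5.84% of its sum. INTS3 held 61.0% of its control sum in long coding transcripts. INTS2 held 41.0%, with its highest transcript left out of this measure because it has no annotated length.

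**Figure D2:**
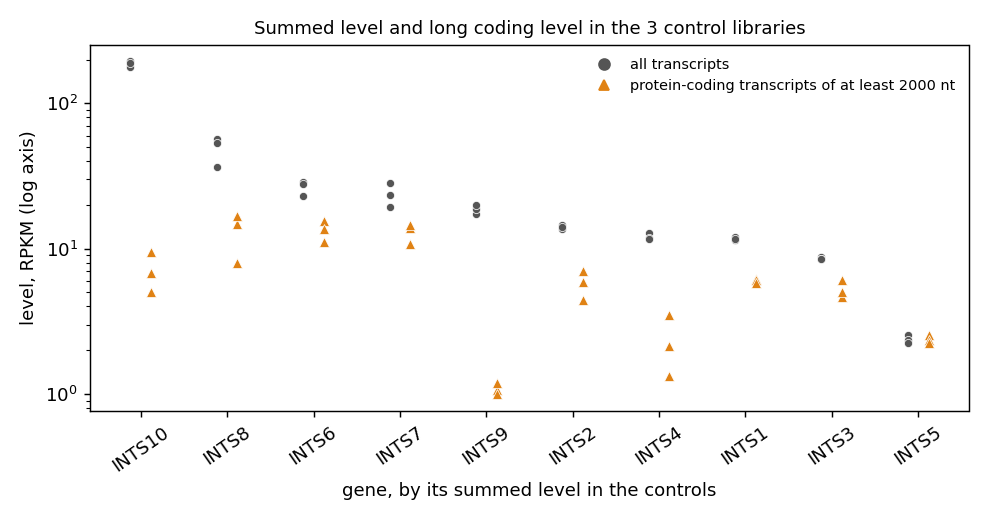
Level of each subunit in the 3 control libraries on a log axis, as the sum over all transcripts (circles) and over protein-coding transcripts of at least 2000 nt (triangles). The circles of INTS10 lie near 187 RPKM and its triangles near 7.13 RPKM, while those of INTS5, which has 1 transcript, coincide.

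None of the 10 subunits passed the threshold between D391N and control cells. The test was limma on log2(RPKM + 0.1) of the gene sums, over 20714 genes with a mean of at least 1 RPKM, with a Benjamini-Hochberg adjusted p under 0.05. In this fit 29 genes were called, which is 0.140% of those tested, 28 of them lower and 1 higher in D391N. At an unadjusted p under 0.05 there were 0 of the 10 members, against 22.7% of all genes. With median centring there were 4 of the 10 members against 24.1%, and with quantile normalization 2 against 22.4%. The members' log2 fold changes lay between -0.83 and 0.43 with a median of 0.15, and 7 were above 0. The median of all tested genes was -0.09, and 57.3% of them were below 0. On simulated data with the spread of all genes, a log2 change of 1 was recovered in 0% of 200 changed genes and a change of 2 in 66%. This does not give the power for the members. Few genes were changed in the simulation, and the members had a median pooled SD of 0.24 in log2 against 0.31 for all genes. Their 95% intervals had a median width of 0.91 in log2, so that changes of the size measured here cannot be told from none. In bulk RNA, fewer cells of a kind and less RNA per cell cannot be told apart.

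In 4 members the libraries of the conditions did not overlap. INTS6, INTS8 and INTS10 were higher in every D391N library, as were 10.5% of all tested genes, and INTS5 was lower in every D391N library, as were 20.7%. The D391N libraries were more spread than the controls in 8 of the 10 members. The coefficient of variation was 4.87% to 45.1% in D391N and 2.36% to 21.9% in the controls, and INTS7 and INTS8 were the exceptions.

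**Figure D3:**
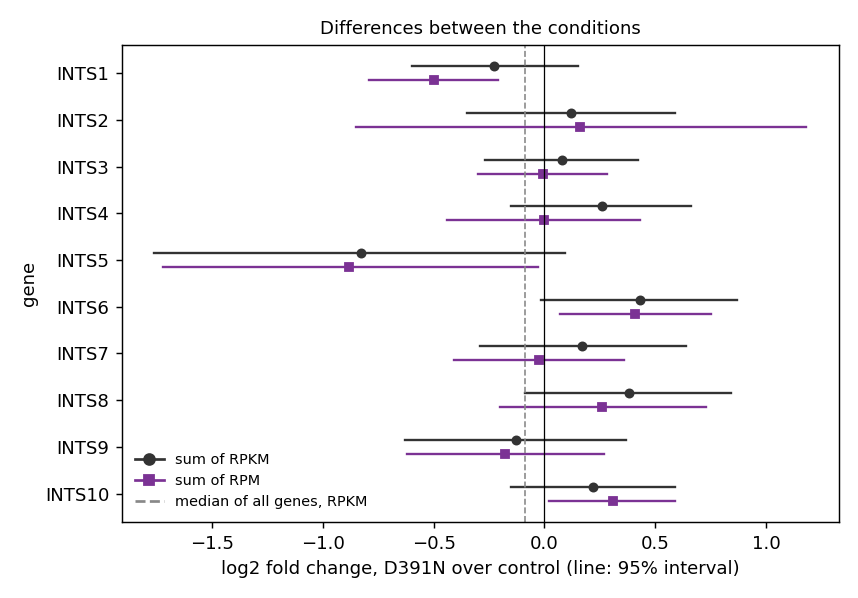
Log2 fold change of each subunit, D391N over control, from the sum of RPKM (circles) and from the sum of RPM, in which each transcript is weighted by its length (squares), with 95% intervals from limma. The dashed line is the median of all genes in RPKM (-0.09). Every interval of the RPKM sums includes 0, and those of INTS1, INTS5, INTS6 and INTS10 in RPM do not.

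A second gene level weighted each transcript by its length, as RPKM times annotated length in kilobases, in RPM, which approximates the reads assigned to the gene. Transcripts without an annotated length were left out, and the lengths may differ from those the authors used. This gene level was chosen after seeing the data. It called 647 of 18536 genes, 3.49%, of which 575 were lower and 72 higher in D391N, and again 0 of the 10 members. At an unadjusted p under 0.05 it had 4 of the 10 members, INTS1 and INTS5 lower and INTS6 and INTS10 higher, against 26.9% of all genes. The smallest adjusted p among the members was that of INTS1, 0.063.

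The backbone subunits differed in direction. INTS1 (ENSG00000164880, chromosome 7, 1509913 to 1544025 on the minus strand), the largest subunit, summed to 9.63, 11.7 and 8.86 RPKM over the D391N libraries, given here and below in replicate order, and to 11.4, 12.1 and 11.7 RPKM over the controls. Replicate 2 of D391N lay among the controls and the other D391N libraries lay below them. The log2 fold change was -0.23 (standard error 0.16, 95% interval -0.60 to 0.15, adjusted p = 0.421). In RPM the conditions did not overlap, with 30.9, 34.6 and 34.9 in D391N and 48.3, 48.5 and 45.3 in the controls, and the log2 fold change was -0.50 (standard error 0.12, 95% interval -0.79 to -0.21). The difference between the measures followed the transcripts. Full-length ENST00000404767, with 2190 codons, was at 3.75, 3.53 and 4.46 RPKM in D391N and at 6.22, 6.05 and 5.81 RPKM in the controls. Its log2 fold change was -0.62 (standard error 0.23, adjusted p = 0.250), and every D391N library was below every control. The posterior SD of its ln RPKM, which covers counting and the division of reads among isoforms, was at most 0.0507 in any library. The 828-nt ENST00000493531, which has no defined coding sequence, was at 3.08, 5.89 and 3.44 RPKM in D391N and at 2.94, 3.95 and 3.89 RPKM in the controls, where the groups overlapped. The full-length share of the INTS1 sum lay outside the control range of 49.5% to 54.6% in D391N replicates 1 and 2 (38.9% and 30.3%), and was 50.3% in D391N replicate 3.

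INTS2 (ENSG00000108506, chromosome 17, 59942728 to 60005377, minus strand) was at 12.5, 20.0 and 14.5 RPKM in D391N and at 14.5, 13.7 and 14.2 RPKM in the controls. A single library, D391N replicate 2, stood above the rest. The log2 fold change was 0.12 (95% interval -0.35 to 0.59, adjusted p = 0.750) and turned to -0.07 without that library. The division among INTS2 transcripts also varied between D391N libraries. ENST00000617492, its highest transcript, took 59.9%, 15.6% and 31.3% of the sum in the D391N libraries against 28.8% to 36.4% in the controls. It has no length in the annotation used and is therefore left out of the RPM. The retained-intron transcript ENST00000578805 was lower in every D391N library, with 0.873, 0.205 and 0.764 RPKM against 2.06, 0.950 and 2.35 RPKM (log2 fold change -1.48, standard error 0.62, adjusted p = 0.282).

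INTS7 (ENSG00000143493, chromosome 1, 212113741 to 212208899, minus strand) overlapped between the conditions, with 28.8, 22.2 and 29.3 RPKM in D391N and 23.4, 28.5 and 19.5 RPKM in the controls. Its log2 fold change was 0.17 (95% interval -0.29 to 0.64, adjusted p = 0.635). Of its full-length coding transcripts, ENST00000366993 was the highest on average and overlapped between the conditions (log2 fold change -0.15, adjusted p = 0.790). ENST00000366994, with 962 codons, held 18.4%, 15.9% and 20.7% of the sum in D391N and 22.5%, 22.6% and 22.9% in the controls. That share was lower in every D391N library (exact permutation test, two-sided, p = 0.10, the smallest that 3 libraries against 3 can give). The largest difference of mean share was 5.43 percentage points, in the retained-intron transcript ENST00000462910, where the shares overlapped.

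Of the cleavage module, the INTS4 sum overlapped between the conditions, and a partial transcript did not. INTS4 (ENSG00000149262, chromosome 11, 77585464 to 77705761, minus strand) is a scaffold of helical repeats that holds INTS9 and INTS11. Its sum was 17.7, 12.8 and 13.5 RPKM in D391N and 12.9, 11.8 and 11.7 RPKM in the controls, with a log2 fold change of 0.26 (95% interval -0.15 to 0.66, adjusted p = 0.402). In RPM the log2 fold change was -0.0015 (95% interval -0.44 to 0.43). Its highest transcript was the read-through ENST00000533180 whose exon end is printed above, at 9.34, 6.21 and 6.94 RPKM in D391N and 4.86, 3.77 and 5.38 RPKM in the controls. Every D391N library was above every control (log2 fold change 0.67, standard error 0.28, adjusted p = 0.281). Its share of the INTS4 sum was also higher in every D391N library, 48.4% to 52.8% against 32.0% to 45.9%. Full-length ENST00000534064, with the spliced junction, was at 1.41, 0.627 and 2.51 RPKM in D391N and 3.47, 2.15 and 1.32 RPKM in the controls. Here the groups overlapped and the log2 fold change was -0.67 (95% interval -2.02 to 0.69). The pseudogene copies INTS4P1 and INTS4P2, which could share reads with INTS4, had means of at most 0.802 RPKM in either condition. INTS4P2 was at 0.194, 1.53 and 0.676 RPKM in D391N and 0.679, 0.316 and 0.406 RPKM in the controls. In D391N replicate 2 it was above the full-length ENST00000534064. The part of shared reads in these values was not tested.

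INTS9 (ENSG00000104299, chromosome 8, 28625178 to 28747759, minus strand) is the catalytically inactive partner of INTS11. Its sum was 22.8, 13.8 and 15.6 RPKM in D391N and 17.3, 18.7 and 19.9 RPKM in the controls, which lay between the D391N values. The log2 fold change was -0.13 (95% interval -0.63 to 0.37, adjusted p = 0.753), and its sign turned to 0.022 without D391N replicate 2 and to 0.091 with median centring. The 498-nt retained-intron transcript ENST00000520831 carried 41.0% ± 11.7 of the sum in D391N and 40.5% ± 8.79 in the controls (SD, n = 3). Its level overlapped between the conditions. The largest difference of mean share, 2.86 percentage points in ENST00000524081, rested on D391N replicate 1, where it was 20.1% against 6.27% and 3.42% in the other D391N libraries. INTS11, the endonuclease, was at 45.6, 22.9 and 27.6 RPKM in D391N and at 47.3, 49.4 and 47.4 RPKM in the controls, below them in every D391N library but near them in replicate 1 (log2 fold change -0.65, standard error 0.26, adjusted p = 0.203).

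The phosphatase module held the lowest and the highest fold changes of the members. INTS5 (ENSG00000185085, chromosome 11, 62414320 to 62420774, minus strand) was at 1.77, 0.670 and 1.76 RPKM in D391N and at 2.53, 2.36 and 2.24 RPKM in the controls. Every D391N library lay below every control, and D391N replicate 2 was far lower than the other D391N libraries. The log2 fold change was -0.83 (standard error 0.39, 95% interval -1.76 to 0.092, adjusted p = 0.253), and it was -0.41 without D391N replicate 2. Since INTS5 has a single transcript, no division among its isoforms enters these values, and the posterior SD of ln RPKM was 0.0596 to 0.154. ENST00000330574 of INTS5 and ENST00000397977 of INTS10 are among the uridylated transcripts that the study lists as bound by D391N, and neither passed the threshold.

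INTS6 (ENSG00000102786, chromosome 13, 51928213 to 52028400, minus strand), which recruits PP2A to the complex, was at 29.0, 36.7 and 42.2 RPKM in D391N and at 28.6, 28.0 and 23.1 RPKM in the controls. All D391N libraries were higher, replicate 1 by little. The log2 fold change was 0.43 (standard error 0.18, 95% interval -0.015 to 0.87, adjusted p = 0.230). The difference lay mostly in the short coding transcript ENST00000490542, at 8.30, 20.5 and 16.0 RPKM in D391N and 6.28, 6.32 and 5.30 RPKM in the controls. Its log2 fold change was 1.22 (standard error 0.37, 95% interval 0.34 to 2.10, adjusted p = 0.195). It passed the threshold without D391N replicate 1 (1.59, adjusted p = 0.0225), where 9.07% of all transcripts did, and in none of the fits that left out another library. Its share of the INTS6 sum was 28.6%, 55.9% and 37.9% in D391N and 22.0%, 22.6% and 22.9% in the controls, a difference of means of 18.3 percentage points without overlap (exact permutation p = 0.10). Without D391N replicate 2 the difference was 10.8 points.

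The other 5 tested INTS6 transcripts had smaller or negative log2 fold changes, from -0.75 to 0.39. The retained-intron ENST00000483441 was higher in every D391N library, at 3.10, 3.64 and 3.30 RPKM against 2.43, 2.53 and 2.61 RPKM (log2 fold change 0.39, standard error 0.24, adjusted p = 0.417). The 602-nt ENST00000461515 lies at the opposite, 5′ end of the gene, has no defined coding sequence and shares no exon with the short coding transcript. It was at 5.09, 2.60 and 3.26 RPKM in D391N and 5.07, 5.55 and 5.38 RPKM in the controls, and its share was lower in every D391N library (10.8% ± 5.87 against 20.3% ± 2.75, SD, n = 3). In replicate 1 the share was 17.6%, next to the lowest control at 17.8%. Full-length ENST00000398119, with the junction printed above, was at 2.69, 2.44 and 3.45 RPKM in D391N and 2.63, 2.43 and 2.20 RPKM in the controls (log2 fold change 0.22, 95% interval -0.41 to 0.86). The 15428-nt ENST00000442263, the best measured of the transcripts with a posterior SD of at most 0.0394, was higher in every D391N library at 2.67 to 3.11 RPKM against 2.02 to 2.42 RPKM (log2 fold change 0.34, standard error 0.25, adjusted p = 0.495). The antisense gene INTS6-AS1 had means of 14.6 RPKM in D391N and 15.5 RPKM in the controls. The library kit keeps the strand, but whether the alignment used it is not stated. The close paralog INTS6L lay below the controls, at 6.0, 4.95 and 6.31 RPKM in D391N and 6.71, 7.95 and 10.3 RPKM in the controls (log2 fold change -0.51, standard error 0.21, adjusted p = 0.215).

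**Figure D4:**
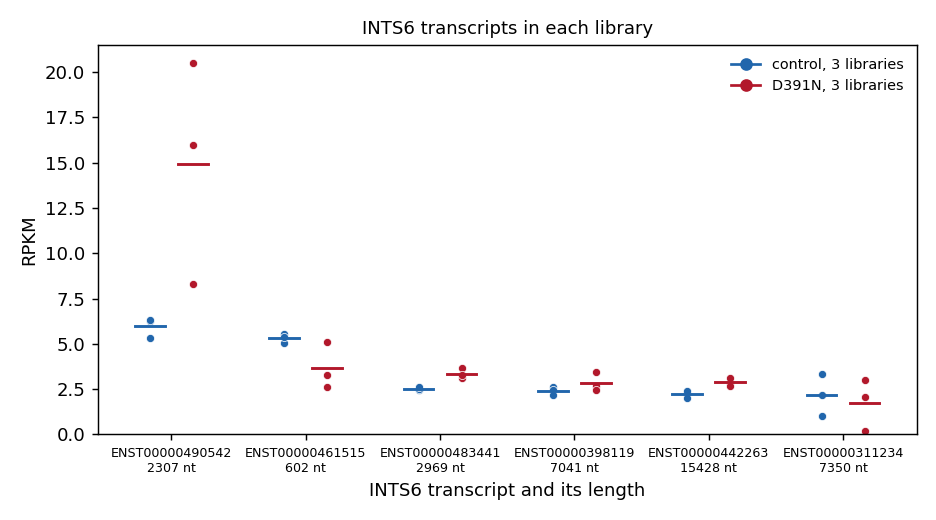
RPKM of the 6 tested INTS6 transcripts, with 3 control (blue) and 3 D391N (red) libraries each, bars at the means and transcript lengths under the names. ENST00000490542 lies between 8.30 and 20.5 RPKM in D391N, above all controls, and the full-length ENST00000398119 overlaps between the conditions.

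INTS8 (ENSG00000164941, chromosome 8, 95825539 to 95893974, plus strand), also of the phosphatase module, was at 64.4, 63.5 and 58.8 RPKM in D391N and at 56.5, 53.0 and 36.6 RPKM in the controls. Control replicate 3 lay well below the others. The log2 fold change was 0.38 (95% interval -0.088 to 0.84, adjusted p = 0.293), and it was 0.18 without control replicate 3. The long coding transcripts of INTS8 did not share this direction: their sum was 16.1, 8.38 and 12.9 RPKM in D391N and 14.8, 16.9 and 7.93 RPKM in the controls. The highest transcript on average, the 548-nt ENST00000521860, also overlapped (log2 fold change -0.21, adjusted p = 0.818). The largest fold change of any member transcript was that of the 554-nt ENST00000520845, which has no defined coding sequence. It was at 8.98, 7.76 and 1.35 RPKM in D391N and 0.403, 0.326 and 1.25 RPKM in the controls. D391N replicate 3 was close to control replicate 3, and the log2 fold change was 2.83 (standard error 0.81, adjusted p = 0.184). The control values are poorly determined, with posterior SDs of ln RPKM of 0.674 to 1.19, where the 10% of transcripts with the lowest levels had a median of 1.27. The retained-intron transcript ENST00000521155 was also higher in every D391N library (log2 fold change 1.55, adjusted p = 0.228) at posterior SDs of at least 0.333.

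The PP2A subunits that this module holds lay on opposite sides of 0. The scaffold PPP2R1A was lower in every D391N library, at 24.9 to 27.7 RPKM against 34.5 to 43.3 RPKM (log2 fold change -0.59, standard error 0.14, adjusted p = 0.109). In RPM it passed the threshold (adjusted p = 0.0352), as did 3.49% of all genes. The catalytic subunit PPP2CA was higher in every D391N library, at 240 to 299 RPKM against 162 to 233 RPKM (log2 fold change 0.39, standard error 0.21, adjusted p = 0.303).

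INTS3 (ENSG00000143624, chromosome 1, 153700526 to 153747284, plus strand) had the smallest coefficient of variation of the members in the controls, 2.36%, and 9.14% in D391N. Its sum was 9.18, 9.88 and 8.22 RPKM in D391N and 8.82, 8.44 and 8.50 RPKM in the controls. The conditions overlapped and the log2 fold change was 0.078 (95% interval -0.27 to 0.42, adjusted p = 0.783). Its isoforms were far less certain than its sum. The coding transcript ENST00000435409 took 37.3% to 58.2% of the sum over the 6 libraries, and the posterior SD of its ln RPKM was 0.841 to 1.14, although its replicates differed by SDs of only 0.169 in D391N and 0.209 in the controls. The largest difference of mean share was -5.43 percentage points in the retained-intron transcript ENST00000481797, which overlapped. Its partners in the SOSS complex, NABP1, NABP2 and INIP, had log2 fold changes of 0.0082, -0.56 and -0.051. None of the 3 passed the threshold or had an unadjusted p under 0.05, which 22.7% of all tested genes had.

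INTS10 (ENSG00000104613, chromosome 8, 19674902 to 19709594, plus strand) was at 210, 240 and 204 RPKM in D391N and at 177, 195 and 190 RPKM in the controls. The D391N libraries were higher without overlap and by small steps, and the log2 fold change was 0.22 (standard error 0.16, 95% interval -0.15 to 0.59, adjusted p = 0.441). The 213-nt ENST00000522806 went the other way. It was at 78.2, 79.2 and 71.1 RPKM in D391N, below all controls (log2 fold change -0.22, adjusted p = 0.632), and its share was below the controls in every D391N library, with 37.3%, 32.9% and 34.8% against 45.0%, 46.6% and 50.5%. The coding fragment ENST00000523846 (704 nt) was at 31.3, 76.9 and 52.1 RPKM in D391N and 33.3, 29.8 and 34.2 RPKM in the controls, above them in replicates 2 and 3 only. In replicate 1 the 457-nt coding fragment ENST00000518799 was high instead, at 33.0 RPKM against 6.99 and 16.4 RPKM in the other D391N libraries and 4.94, 5.51 and 8.63 RPKM in the controls (log2 fold change 1.32, standard error 0.57, adjusted p = 0.290). The full-length ENST00000397977 overlapped between the conditions, at 7.30, 4.61 and 8.94 RPKM in D391N (log2 fold change -0.039, 95% interval -0.90 to 0.82). The retained-intron transcript ENST00000519493 was higher on average (1.0, adjusted p = 0.258) with overlap. ENST00000518424, annotated for nonsense-mediated decay, was lower in every D391N library at 0.721, 1.27 and 0.807 RPKM against 1.75, 3.22 and 2.92 RPKM (log2 fold change -1.40, standard error 0.38, adjusted p = 0.175). The single-exon ENST00000607660 was also lower in every D391N library (log2 fold change -0.99, adjusted p = 0.264).

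Of the 127 listed member transcripts 51 had a mean of at least 1 RPKM and were tested, 22 of them protein-coding, 15 retained-intron, 9 annotated for nonsense-mediated decay, 4 without a defined coding sequence and 1 without annotation. The other 76 had control means of at most 1.25 RPKM. None of the 51 passed the threshold, where 33 of 54671 transcripts did (0.0604%). At an unadjusted p under 0.05 there were 9, 5 higher and 4 lower, and all 9 are named above. The background share was 17.6%. Relative to the gene sum, 0 of 50 member ratios passed (0.0133% of 45095 did), with 7 at an unadjusted p under 0.05 against 15.6%. Shares did not overlap between the conditions in 7 of the 50, 2 higher and 5 lower in D391N, against 23.3% of all tested transcripts. Those 7 were the short coding and the 5′ transcripts of INTS6, the read-through of INTS4, ENST00000366994 of INTS7, and ENST00000522806, ENST00000518424 and ENST00000607660 of INTS10. In the long coding transcripts, 1 member was higher in every D391N library (INTS6, 16.9, 27.0 and 24.4 RPKM against 15.4, 13.6 and 11.2 RPKM) and INTS1 and INTS5 were lower. The INTS6 sum includes the partial transcripts ENST00000490542 and ENST00000442263, while the longer coding ENST00000398119 and ENST00000311234 each overlapped between the conditions. The other 7 overlapped. Of all 8157 genes with a mean of at least 1 RPKM on this measure, 11.6% were higher and 23.5% lower in every D391N library.

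The remaining subunits were compared in the same fit. For the counts that follow, 22.7% of all tested genes had an unadjusted p under 0.05 and 57.3% were below 0. None of INTS11, INTS12, INTS13, INTS14, INTS15 and SEM1 passed the threshold of limma, 2 of the 6 had an unadjusted p under 0.05 (INTS11 and INTS15), 2 were above 0, and their median log2 fold change was -0.14. The lowest was INTS15, at 2.46, 2.05 and 2.35 RPKM in D391N and 3.81, 4.21 and 3.25 RPKM in the controls (log2 fold change -0.69, standard error 0.20, adjusted p = 0.133). INTS13, which with INTS14 and INTS10 forms the arm, was the highest (0.21, standard error 0.18, adjusted p = 0.519) and overlapped, as did INTS12 at 0.06. Of 6 pausing factors, which hold polymerase II where Integrator acts, none passed and 1 had an unadjusted p under 0.05, and NELFB (-0.66) and NELFA (-0.44) were lowest and NELFE (0.14) and SUPT5H (0.049) highest in log2 fold change. In RPM, where 3.49% of all genes passed, 1 of the 6 did, NELFCD (adjusted p = 0.0444). Its RPKM overlapped between the conditions (log2 fold change -0.14, adjusted p = 0.601). Of 5 genes of the little elongation complex, which serves transcription of snRNA genes, none passed and 0 had an unadjusted p under 0.05, with ICE1 (0.42) and ZC3H8 (0.20) highest and ELL2 (-0.33) and ICE2 (-0.11) lowest. The factors that cut pre-mRNA at polyadenylation sites include the paralogs of INTS9 and INTS11, CPSF2 and CPSF3. None of 11 passed, 2 had an unadjusted p under 0.05, and CPSF4 (-0.64, adjusted p = 0.0919) and CPSF1 (-0.51, adjusted p = 0.156) were lowest and WDR33 (0.39) and FIP1L1 (0.23) highest. In RPM, CPSF1 (adjusted p = 0.0352) and CPSF4 (adjusted p = 0.0455) passed, against 3.49% of all genes.

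Of 6 genes that act on snRNAs after the cut, 3 were higher in every D391N library, as were 10.5% of all tested genes. NCBP2 was lower in every D391N library, as were 20.7%. XPO1, the exporter, was at 268, 423 and 361 RPKM in D391N and 189, 205 and 152 RPKM in the controls (log2 fold change 0.93, standard error 0.23, adjusted p = 0.111). PHAX, its adaptor for capped snRNA, was at 105, 159 and 113 RPKM against 76.5, 74.9 and 68.3 RPKM (0.76, standard error 0.19, adjusted p = 0.113). TGS1, which modifies the cap, was higher in every D391N library as well (0.51, adjusted p = 0.220). NCBP2 (-0.16) and TOE1 (-0.03), the latter a trimming enzyme, were the lowest of the 6 genes. None of the 6 passed the threshold, with 2 at an unadjusted p under 0.05, against 22.7% of all tested genes.

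The snRNAs whose 3′ ends Integrator makes were lower on average in D391N, but their libraries did not behave alike. Of 18 such genes 15 could be matched by symbol and were tested, and RNU2-1, RNU11 and RNU12 could not. None of the 15 passed the threshold, while 8 were at an unadjusted p under 0.05, against 22.7% of all tested genes. Below 0 were 13 of the 15, against 57.3%, and the median log2 fold change of the 15 was -2.53. Their summed level was 26508, 3678 and 9400 RPKM in the D391N libraries and 37423, 37171 and 47895 RPKM in the controls. The U1 gene RNU1-3 was lowest in log2 fold change (-3.57, adjusted p = 0.129), at 821, 40.3 and 296 RPKM against 2032, 2682 and 3006 RPKM, followed by RNU1-4 (-3.20). RNU7-1 (0.44) and RNU4ATAC (0.25) were the highest. The U1 genes are near-identical copies, so that the division of reads among them is uncertain. The 6 polymerase III genes of U6 and U6atac, which do not depend on Integrator, all had log2 fold changes below 0, with a median of -2.71. In limma 2 of the 6 passed, against 0.140% of all tested genes: RNU6-8 (-3.50, adjusted p = 0.0282) and RNU6-7 (-3.52, adjusted p = 0.0467). These 2 lay close together in D391N, at 12.4, 5.85 and 11.1 RPKM and at 12.6, 6.10 and 11.6 RPKM. How reads were divided between them was not tested, so they may not be separate results. Highest of this group were RNU6-2 (-2.10) and RNU6-9 (-2.30). The same libraries differed in the share of reads on transcripts under 200 nt, 2.43%, 0.342% and 1.52% in D391N and 3.18%, 3.08% and 2.89% in the controls, and the part of this in the snRNA values was not tested. The values hold no information on where the 3′ ends of these RNAs lay.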

How the data were processed

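RNA-seq of 3 D391N and 3 control libraries was analysed, grouped by the sample labels. According to the methods of the study, rRNA-depleted RNA was sequenced as single-end reads, trimmed with cutadapt, mapped by Segemehl to the Ensembl transcripts (GRCh38), and quantified with BitSeq, which divides reads among transcripts. The deposited values are, per transcript and library, a posterior mean on the natural log scale of RPKM and a score, the variance of that posterior, both as the authors estimated them. Read totals were not used here.

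RPKM were recovered by exponentiation and summed per gene. Genes and transcripts that averaged 1 RPKM or more across the 6 libraries entered the tests as log2(value + 0.1), which shrinks fold changes of low genes. Isoform ratios were log2 of (transcript + 0.1) over (gene sum + 0.1), for the tested transcripts of genes with more than 1 of them. The fits used limma 3.58.1 (empirical Bayes with trend, all libraries, no covariates) in R 4.3.3 with Benjamini-Hochberg adjustment over all features. Shares were compared by two-sided exact permutation tests. Tables were made with Python 3.11.15. Errors are SDs between libraries. Estimated depth was 19800000 to 33100000 reads, from the posterior variance, RPKM and length of 555 to 640 single-transcript coding genes per library. It covers counting error only and depends on annotated lengths.

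Symbols, lengths and biotypes came from GENCODE release 44 on GRCh37, with symbols for 88.2% of gene identifiers and lengths for 90.2% of transcripts. A simulated gene table with known changes checked the fit: among 200 genes given a log2 change of 3, calls reached 88.5%, and 6 calls were false. The genes named are the 10 members, of each its highest transcript, the tested transcript whose mean share differed most, and transcripts past the threshold, and of each other list the genes past the threshold and the 2 highest and 2 lowest fold changes. Other transcripts were named after their values were seen. A HEK293 marker of the list is not reported here. The members and lists were chosen with earlier results of these data known. Alternatives were other pseudocounts, filters, scalings, a replicate block, array weights, a variance correction, other gene sums and each library left out. The gene sums in RPM and over long coding transcripts were added after seeing the data.

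Replicate numbers were not treated as pairs. Deviations of same-numbered libraries from their group means had correlations of 0.0699, 0.221 and -0.111, which cannot exclude pairing with so few libraries.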

Additional observations from a re-analysis of the deposited data

How the results depend on the processing

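No member gene passed the threshold in limma under any of the alternatives it was fitted to, which leave out the sums over long coding transcripts. Those included, 188 of 199 recomputed member fold changes kept their direction. Those that turned were INTS9 with median centring (0.091) and without D391N replicate 2 (0.022), INTS2 without D391N replicate 2 (-0.07), INTS3 with the variance correction (-0.0019), and in RPM INTS3 (-0.0077), INTS4 (-0.0015) and INTS7 (-0.024). In long coding transcripts INTS4 (-0.67), INTS7 (-0.099), INTS8 (-0.063) and INTS10 (-0.039) turned. Median centring put the median log2 fold change of all genes at 0.13 and quantile normalization at 0.076, against -0.09, and the members moved up with them, to a median of 0.37 with median centring. INTS1, below 0, came to -0.011 with median centring and -0.065 with quantile normalization.

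The number of genes called was 61 with pseudocount 1, 16 with pseudocount 0.01, 6 with a mean of at least 5 RPKM, 18 with no filter, 14 with median centring, 17 with quantile normalization, 71 with array weights, 19 with sums over tested transcripts and 647 in RPM. For transcripts it was 142 with pseudocount 1, 17 with a mean of at least 5 RPKM, 18 with no filter, 52 without trend and 54 with array weights. For isoform ratios it was 48 with pseudocount 1, 3 with pseudocount 0.01, 16 with a mean of at least 0.1 RPKM, 24 with a mean of at least 5 RPKM, 19 with no filter, 192 with array weights and 11 with the variance correction. The cause was not tested.

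With a replicate block, although the sources do not say that the numbers pair the libraries, 2 genes, 7 transcripts and 0 ratios were called, and 0 members at any level. The block left 6 member transcripts and 5 member ratios at an unadjusted p under 0.05, against 9 and 7 without it. With the block, 16.2% of all transcripts and 15.1% of all ratios were at that level.

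Leaving out 1 library gave INTS2 log2 fold changes of -0.07 to 0.27 and INTS9 ones of -0.34 to 0.022. Values that moved by over 1.5 times were INTS1 without D391N replicate 3 (-0.14), INTS3 without D391N replicate 2 (0.017) or 3 (0.15), INTS4 without D391N replicate 1 (0.12), INTS5 without D391N replicate 2 (-0.41), INTS7 without D391N replicate 2 (0.30) or 3 (0.10) or control replicate 2 (0.31) or 3 (0.038), INTS8 without control replicate 3 (0.18) and INTS10 without D391N replicate 2 (0.14). Leaving out 1 library also gave 2 to 2261 genes, 2 to 4961 transcripts and 0 to 3392 ratios, the highest each time without D391N replicate 1. Member transcripts called ranged from 0 to 3 of 51 and member ratios from 0 to 1 of 50. Without D391N replicate 1, 9.07% of all transcripts and 7.52% of all ratios were called. The members called there in limma were ENST00000490542 of INTS6 (1.59, adjusted p = 0.0225), ENST00000519053 of INTS8 (1.55, adjusted p = 0.0487), ENST00000607660 of INTS10 (-1.40, adjusted p = 0.0358) and the ratio of ENST00000461515 of INTS6 (-1.42, adjusted p = 0.0451). Member shares without overlap ranged from 10 to 19 of 50, against 7, where those of all transcripts ranged from 29.1% to 48.0%, against 23.3%. Among protein-coding transcripts they were 3 of 21, against 23.2%.

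With 3 libraries a condition, exact tests cannot go below p = 0.10. Isoform levels depend on how BitSeq divided shared reads. According to the methods of the study, 3 libraries were sequenced together in a lane. The sources do not say which libraries these were, nor which libraries shared a culture.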
